A study of Mus musculus with 2 samples.

Results

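Hypoxia-inducible genes were followed in the liver of a mouse lacking Tmprss6 and of a control mouse. The set holds 10 genes: Hif1a, Vegfa, Egln1, Egln3, Adm, Ndrg1, Ankrd37, P4ha1, Slc2a1 and Ddit4, out of 18193 genes that the array annotation names by a single symbol. Every probe set that the annotation assigns to one of these symbols alone was taken, 24 in all. No probe set of these genes was shared with another symbol. Both animals were males aged 3 months on a mixed 129Sv/C57BL6 background, and both were fasted overnight before the liver was taken. The control group was 1 animal, whose genotype is given only as control, and the Tmprss6-deficient group was 1 Tmprss6-/- animal, made by gene targeting. The sources used here do not say which part of the gene was removed, or whether the 2 animals were littermates. RNA was read on Affymetrix mouse arrays, 1 for each liver.

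Cells answer low oxygen mainly through hypoxia-inducible factors (HIF), pairs of an oxygen-regulated alpha subunit and the constant partner ARNT. With oxygen present, prolyl hydroxylases of the EGLN family mark the alpha subunit, and the VHL ubiquitin ligase then removes it. These hydroxylases need iron as well as oxygen, which links the pathway to iron supply. Tmprss6 encodes matriptase-2, a hepatocyte protease that restrains the iron hormone hepcidin, and animals without it are known for high hepcidin, low plasma iron and anaemia. Much of HIF control acts on protein stability, so transcripts of HIF targets, rather than that of Hif1a, are the usual readout of the pathway. In liver, HIF activity is higher around the central vein, where oxygen is lowest.

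HIF binds DNA at a short core, ACGTG or GCGTG. The 250 bases before the start site were in RefSeq's table (GRCm38.p6) for 9 of the 10 genes; Ndrg1 had no entry. A core was present on either strand in at least 1 window of all 9 genes, with a median of 2 matches a gene. Of 8356 genes above the signal floor on both arrays that had a window, 62.1% held a core, with a median of 1 match, and of all 27025 genes with a window 41.5% did. The windows of the 9 genes had a median GC content of 66.4%, against 60.0% for the genes above the floor, and both core sequences are themselves rich in G and C. Vegfa had 2 windows on the minus strand of chromosome 17. The window of the upstream start, 46032378-46032627, held 0 matches. Vegfa is thus counted only through the window of a start further into the gene, 46025164-46025413, which is not its upstream promoter. The windows shown are those of the 3 genes with the widest differences on their brightest probe set and of Ankrd37, whose transcript was not detected above the floor. Capitals mark the core as printed or as it reads on the other strand, where it appears as CACGT in place of the first form or as CACGC in place of the second. Each sequence runs 5′ to 3′ on the gene's strand and ends at the base before the start site.

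Hif1a: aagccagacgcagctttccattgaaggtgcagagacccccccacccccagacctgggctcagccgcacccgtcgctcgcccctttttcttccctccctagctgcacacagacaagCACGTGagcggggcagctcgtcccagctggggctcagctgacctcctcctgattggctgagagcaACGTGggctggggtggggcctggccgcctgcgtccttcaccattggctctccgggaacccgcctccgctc

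Slc2a1: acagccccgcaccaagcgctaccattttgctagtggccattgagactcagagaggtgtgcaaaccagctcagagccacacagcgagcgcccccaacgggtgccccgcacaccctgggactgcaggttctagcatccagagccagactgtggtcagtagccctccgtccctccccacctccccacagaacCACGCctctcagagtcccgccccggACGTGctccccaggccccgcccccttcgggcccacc

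Ddit4: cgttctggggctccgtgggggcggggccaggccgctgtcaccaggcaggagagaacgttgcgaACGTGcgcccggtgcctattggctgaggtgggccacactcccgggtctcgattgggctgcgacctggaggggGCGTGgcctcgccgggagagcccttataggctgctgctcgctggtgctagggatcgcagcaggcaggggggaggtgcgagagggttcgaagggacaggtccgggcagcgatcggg

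Ankrd37: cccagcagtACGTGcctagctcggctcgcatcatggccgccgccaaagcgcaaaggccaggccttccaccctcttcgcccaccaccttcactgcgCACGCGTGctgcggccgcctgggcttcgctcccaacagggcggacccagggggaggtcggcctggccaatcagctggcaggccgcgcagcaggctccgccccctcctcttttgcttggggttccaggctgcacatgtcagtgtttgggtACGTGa

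The Hif1a window, chr12:73907617-73907866 on the plus strand, carried cores starting 135 and 70 bases before the start site. The first of them is the palindrome CACGTG, in which a core on each strand overlaps, and which is also the E-box read by clock and MYC-family factors. Among genes above the floor, 10.4% had a CACGTG in the window, and Hif1a was the only one of the 9 genes with it. The Slc2a1 window, chr4:119108495-119108744 on the plus strand, held cores 61 and 36 bases before the start. The Ddit4 window, chr10:59951771-59952020 on the minus strand, held cores 187 and 115 bases before it. The Ankrd37 window, chr8:45999851-46000100 on the minus strand, held 3 separate stretches, at 241, 155 and 6 bases before the start, the middle one with overlapping cores. A match describes the letters in the window and was not read as a bound site.

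Each liver gave a single array, so no replicate check and no test is possible, and every difference is one between 2 animals. Precision is limited by this number of arrays. Signals are MAS5 intensities, and ratios are Tmprss6-deficient over control, taken after both arrays were brought to a common trimmed mean and signals under a floor of 17.8 were set to it. Signals of the 10 genes and of Tmprss6 and sums over markers are printed as deposited. Single signals of other genes are printed after scaling, which changed them little (the control array by a factor of 0.999). A gene is represented by its brightest probe set, and a difference is counted from 1.5-fold, or 0.58 on the log2 scale. As an error, only the probe set spread is at hand, the SD with which log2 ratios vary between different probe sets of 1 gene. It holds no variation between animals. It came to 0.46 in 956 genes with signals under 64 and to 0.37 in 2082 genes between 64 and 256. Between 256 and 1024 it was 0.32 in 974 genes, and above 1024 it was 0.18 in 355 genes.

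Both arrays read 9 of the 10 genes above the floor, and none of the 9 differed by 1.5-fold or more. Of the 10243 genes read this way on the whole array, 15.9% passed 1.5-fold, 7.6% as higher and 8.29% as lower in the Tmprss6-deficient liver. Higher genes made up 47.8% of those past the threshold, and 37.6% where the arrays were scaled to their medians. The median log2 ratio of the 9 genes was -0.019, with 4 ratios above and 5 below 0, and that of all genes was -0.0060. The median size of the log2 ratio, whatever its sign, was 0.27 for the 9 genes and 0.24 for all genes. Hif1a, Slc2a1 and Ddit4 lay just inside the threshold, at 1.48-fold lower, 1.48-fold lower and 1.47-fold higher. With the arrays scaled to the median of all probe sets, Hif1a and Slc2a1 passed it, at log2 ratios of -0.63 and -0.64, and Slc2a1 also passed with loess (-0.60) and quantile normalization (-0.60). By probe set, both arrays exceeded the floor for 20 of the 24, and 2 of the 20 passed 1.5-fold, against 17.6% of all 17433 such probe sets. Both were dim sets, of Egln1 and Ndrg1. Among the members, 2 of 10 sets passed with signals from the floor to 64, where 25.9% of all sets did. From 64 to 256, 0 of 8 passed against 16.2% of all sets, and from 256 to 1024, 0 of 2 against 8.83%.

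**Figure D1:**
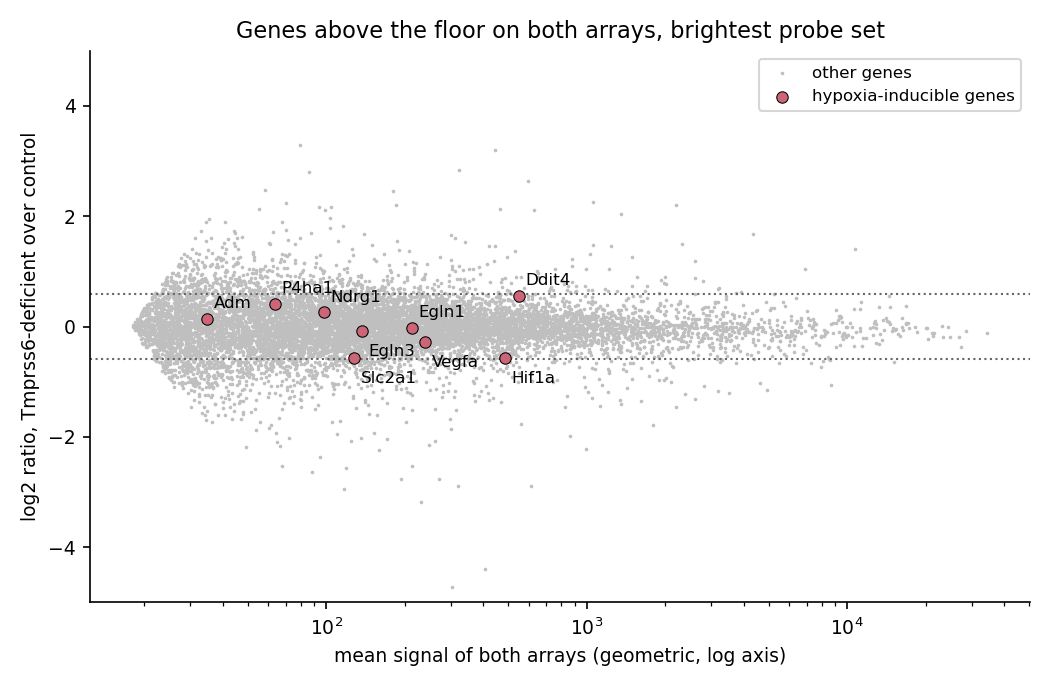
Each point is a gene above the floor on both arrays, read by its brightest probe set; the horizontal axis is the geometric mean signal on a log scale, the vertical axis the log2 ratio of Tmprss6-deficient over control, and the dotted lines mark 1.5-fold. The 9 hypoxia-inducible genes lie between -0.57 and 0.56, inside both lines, with Hif1a and Slc2a1 near the lower line and Ddit4 near the upper.

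The targeted gene was far lower in the Tmprss6-deficient liver, as its label says. Tmprss6 read 1868 in control and 88.1 without the gene, a 21.2-fold lower signal, on its single probe set. Where its probes lie relative to the deleted part is not known here, and probes outside that part would not check the label. Hepatocyte markers were strong and close on both arrays, with 7 of 7 within 1.5-fold and a summed signal of 152018 in control and 150207 in Tmprss6-deficient liver. RNA control probe sets differed in places. The Tmprss6-deficient liver read 2.01-fold higher on the 5′ set of pyruvate carboxylase, while its 3′ set was 1.12-fold lower, so its 3′ to 5′ ratio was 21.4 in control and 9.54 in Tmprss6-deficient liver. The 3′ to 5′ ratio of beta-actin was 3.33 and 2.91, and that of Gapdh 0.934 and 0.878. Signal from 18S ribosomal RNA was 11.7-fold lower in the Tmprss6-deficient liver on its 3′ set. The part of these differences in the ratios of the hypoxia-inducible genes was not tested.

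The transcript of the oxygen-regulated factor itself was lower on its brighter probe sets. Hif1a, the alpha subunit of HIF-1, read 592 in control and 399 in Tmprss6-deficient liver on 1427418_a_at, a log2 ratio of -0.57 against a spread of 0.32. On 1416035_at it read 146 and 100.2, a log2 ratio of -0.54 with a spread of 0.37. The dim set 1448183_a_at read 25.5 and 29.3 (0.20, spread 0.46), and 1431981_at was below the floor on both arrays. The measured sets thus did not share a direction. The mean over the 3 measured sets was -0.30 with an SD of 0.44. In whole liver, fewer cells of a type and less RNA per cell cannot be told apart.

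Both hydroxylase genes in the set were nearly level on their brightest probe sets. Egln1 encodes PHD2, the main HIF prolyl hydroxylase. Control liver read 215 and Tmprss6-deficient liver 212 on 1423785_at, a log2 ratio of -0.019. Its other set, 1451110_at, read 47.0 and 79.0, 1.69-fold higher without Tmprss6, a log2 ratio of 0.75 against a spread of 0.46. The sets of Egln1 therefore did not share a direction. Egln3 encodes PHD3, a hydroxylase whose own gene is induced by HIF. It read 141 and 133 on 1418649_at and 39.2 and 35.1 on 1418648_at, ratios of -0.086 and -0.16. Both sets of Egln3 lay well within their spread, and the arrays were close.

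Among secreted vascular factors, Vegfa, the chief signal for vessel growth, read 264 and 218 on 1420909_at, a log2 ratio of -0.27 with a spread of 0.37. On the dimmer 1451959_a_at it read 37.7 and 54.0, a log2 ratio of 0.52 with a spread of 0.46. The brighter set was lower and the dimmer set higher in the Tmprss6-deficient liver, so the direction of Vegfa is not settled by these arrays. Adm encodes the vasodilator peptide adrenomedullin. It read 33.3 and 36.6 on 1447839_x_at, a log2 ratio of 0.14, and its set 1416077_at read 15.2 and 24.2, above the floor on the Tmprss6-deficient array alone and at least 1.36-fold higher. Both sets were near the floor, where the spread of 0.46 exceeds the ratio of the first, and the second gives only a bound.

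Slc2a1 was lower on all of its probe sets, by similar amounts. It encodes the glucose transporter GLUT1, which supplies glycolysis. Control and Tmprss6-deficient liver read 156 and 105 on 1434773_a_at, 84.6 and 58.4 on 1426599_a_at and 69.1 and 50.1 on 1426600_at. The log2 ratios were -0.57, -0.53 and -0.46, a mean of -0.52 with an SD of 0.055 over the 3 sets. Each single ratio was 0.99 to 1.56 times the probe set spread at its signal. Of 1034 genes with 3 probe sets read on both arrays, 39.4% had all 3 in a single direction, and 20 had all 3 lower by 0.4 or more on the log2 scale, a limit chosen after the Slc2a1 values were seen. Probe sets of 1 gene share the same RNA, so their closeness says nothing about other animals.

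P4ha1, the catalytic subunit of the collagen prolyl hydroxylase, pointed the other way. It read 55.2 and 73.5 on 1452094_at, a log2 ratio of 0.42. On 1426519_at, close to the floor on both arrays, the ratio was 0.18. Both sets were higher in the Tmprss6-deficient liver and both ratios were under the spread of 0.46.

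Of the stress regulators, Ddit4 and Ndrg1 had ratios above 0 but under 1.5-fold on their brightest sets, and Ankrd37 was below the floor. Ddit4 encodes REDD1, an inhibitor of the growth kinase mTORC1 that responds to hypoxia, glucocorticoids and amino acid stress. It read 454 in control and 666 in Tmprss6-deficient liver on its only probe set, a log2 ratio of 0.56 with a spread of 0.32. Ndrg1, a gene induced by hypoxia and other stress in many cell types, had 5 probe sets, all higher in the Tmprss6-deficient liver. It read 89.5 and 107 on 1456174_x_at, 79.5 and 119 on 1420760_s_at and 34.5 and 36.7 on 1423413_at, with ratios of 0.26, 0.58 and 0.093. On 2 further sets the gap was wider. The set 1450977_s_at read 20.2 and 50.5, 2.51-fold higher, a log2 ratio of 1.33 against a spread of 0.46, and 1450976_at read 15.4 and 51.0, above the floor on the Tmprss6-deficient array alone and at least 2.87-fold higher. The direction of Ndrg1 was thus shared by its sets, while the size ran from 1.07-fold to at least 2.87-fold, so the size is not settled. Its sets share the same RNA, and the smallest ratio, 0.093, was well under its spread of 0.46. No share of all genes with 5 agreeing sets is at hand. Of these sets, 1420760_s_at lay just inside 1.5-fold.

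Ankrd37, a small ankyrin-repeat gene known as a sensitive HIF-1 target, read 12.8 and 13.5 on its only probe set. Both values were below the floor, so no ratio is given.

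**Figure D2:**
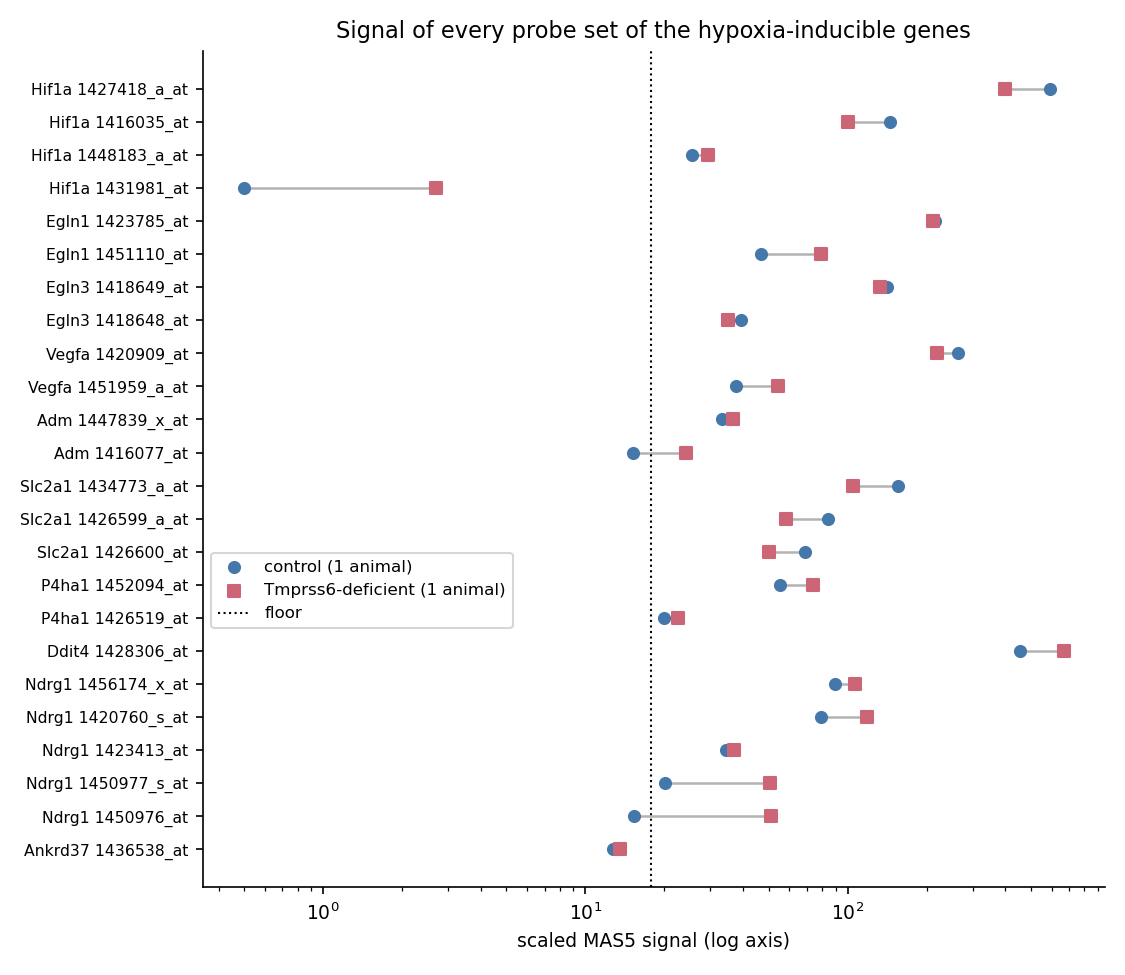
Each row is a probe set of a hypoxia-inducible gene, with its scaled MAS5 signal on a log axis in the control liver (blue circle) and the Tmprss6-deficient liver (red square), 1 animal each; the dotted line is the floor of 17.8. All 3 Slc2a1 sets are lower and all 5 Ndrg1 sets higher in the Tmprss6-deficient liver, while the sets of Hif1a, Egln1 and Vegfa cross over.

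**Figure D3:**
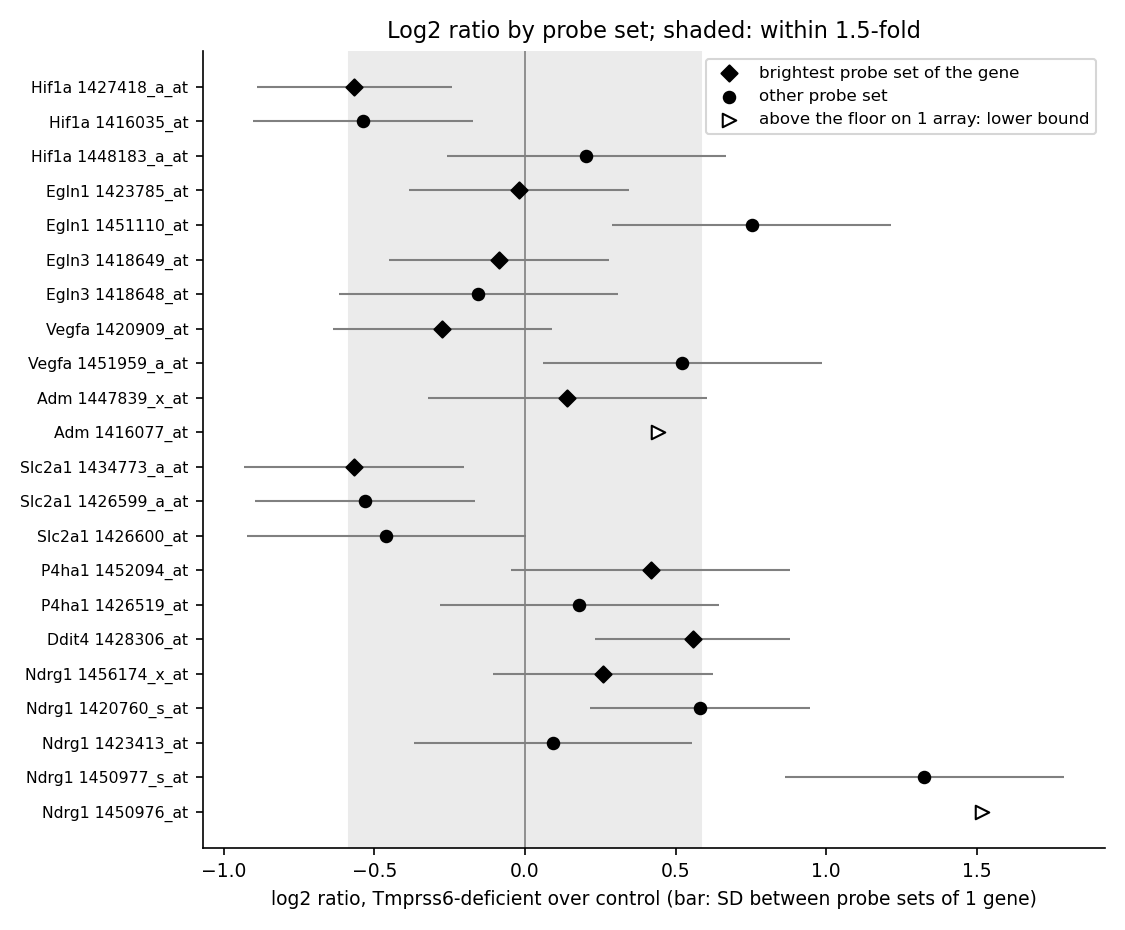
Log2 ratio of Tmprss6-deficient over control for the 22 probe sets above the floor on at least 1 array, with bars for the SD between probe sets of 1 gene at that signal; open triangles are lower bounds and have no bar. The shaded band is 1.5-fold, and only 2 sets above the floor on both arrays lie outside it, at 0.75 (Egln1) and 1.33 (Ndrg1).

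Probe sets of the same gene did not always share a direction, among the members or on the whole array. Among the 7 genes with at least 2 sets read on both arrays, the 2 brightest sets shared a sign in 5, against 60.8% of 4367 genes on the whole array. The second set had the higher ratio in 5 of the 7, against 54.4% of those genes. Egln1 and Vegfa changed sign between these sets, and Hif1a on the dimmest of its measured sets.

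Of 20 regulators of oxygen sensing listed, 17 exceeded the floor on both arrays, with 2 higher, 0 lower and a median log2 ratio of -0.058. The share within 1.5-fold, 88.2%, was near the 84.1% of all genes, and 2 more regulators were past 1.5-fold by their bounds. Vhl, the ubiquitin ligase subunit that removes hydroxylated HIF, read 32.4 and 56.5 on its measured set, 1.75-fold higher (0.80, spread 0.46). Cited2, which competes with HIF for the coactivator p300, was 1.62-fold and 1.80-fold higher on its 2 sets. Epas1, the alpha subunit of HIF-2 and the main regulator of erythropoietin, had a ratio of -0.058 on its bright set and 1.36 on a dim one (from 53.0 to 136). Arnt, the shared partner, had a ratio of 0.098 and Hif1an, which encodes the asparagine hydroxylase FIH, -0.057, each with its sets in disagreement. Egln2, the remaining prolyl hydroxylase, read 366 and 329 on its set (-0.15). Hif3a was above the floor on the Tmprss6-deficient array alone on both measured sets, at least 1.75-fold and at least 1.48-fold higher. Arnt2 was likewise above the floor on that array alone, with a log2 bound of 0.68. These bounds rest on signals of 26.3 to 31.2, close to the floor.

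Glycolytic genes under HIF, Slc2a1 included, were split, with 8 ratios above and 8 below 0. Of these 16 genes, 1 was higher and 2 were lower past 1.5-fold, and 81.25% were within it, against 84.1% of all genes. The median log2 ratio was -0.037, or -0.15 and 0.24 with the floor at the 30th and 70th percentile. Pdk1, the kinase that keeps pyruvate out of the mitochondrion, had log2 ratios of 0.71, 0.58 and 0.59 on its measured sets, 1.64-fold higher on the brightest. Pfkfb3, an activator of glycolysis, was 2.42-fold lower, and Ppp1r3c, a glycogen-targeting phosphatase subunit, was 2.26-fold and 1.39-fold lower on its 2 sets. Pfkfb4 was above the floor on the control array alone and at least 1.52-fold lower. Ldha, Pgk1 and Aldoa, further targets of this group, were within 1.5-fold on their brightest sets. Ratios were 0.058 for the lactate dehydrogenase gene Ldha, 0.25 for Pgk1, whose sets disagree, and 0.37 for Aldoa. All 5 Aldoa sets were higher, from 0.19 to 0.51.

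Vascular and secreted targets had 3 of 12 ratios above 0, against 49.3% of all genes. Their median was -0.23 (-0.34 for a floor at the 70th percentile). Past 1.5-fold, 1 was lower and 0 higher, so 91.7% were within it, against 84.1% of all genes. The VEGF receptor gene Kdr was 1.55-fold lower (149 and 96.4). Among other vessel genes, Flt1 had a ratio of -0.46 with its sets in disagreement, and Tek one of -0.50. Nos3, on the same list, went the other way, at 0.28 (46.0 and 55.8). Edn1, the vasoconstrictor endothelin-1, was above the floor on the Tmprss6-deficient array alone and at least 1.57-fold higher. Endothelial markers, which share Kdr, Flt1 and Tek with this group, were mixed, 3 of 10 higher and 2 lower at a median of 0.14, and summed to 1438 in control and 1402 in Tmprss6-deficient liver.

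On their brightest sets, collagen-modifying and folding targets had ratios above 0 in 6 of 6 genes, against 49.3% of all genes. Their median was 0.41, with none past 1.5-fold. Raising the floor to the 70th percentile gave a median of 0.23, and averaging all measured sets gave 0.26. Of 3 further genes read on 1 array, Plod2 and Lox were at least 1.13-fold and 1.17-fold higher and Loxl4 at least 1.10-fold lower. P4ha2, the paralog of P4ha1, had a ratio of 0.41 (33.0 and 43.9), Ccn2 0.42 and Col5a1 0.49 with its sets in disagreement. Plod1 was nearly level at 0.030. Ero1a had 0.043 on its brightest set but -0.068 and -0.33 on its other sets. On their brightest sets, stellate and fibroblast markers, from cells that make collagen, stayed within 1.5-fold in 7 of 7 genes. Their median was 0.20, with 1 more above the floor on the control array alone. Rgs5, Pdgfrb and Reln had sets in disagreement, Rgs5 from 2.82-fold lower to at least 2.54-fold higher. These markers summed to 2881 in control and 3191 in Tmprss6-deficient liver, where Dcn read 1220 and 1589. The part of these cells in the ratios of P4ha1 and its group was not tested.

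Growth, autophagy and mitochondrial targets, the group that holds Ddit4 and Ndrg1, differed in both directions. Of 21 genes, 4 were higher and 4 lower, and 61.9% were within 1.5-fold, against 84.1% of all genes. The median was 0.26, which came to 0.081 for a floor at the 30th percentile and to 0.13 for the 70th. Hilpda, a lipid droplet protein gene induced by HIF, read 22.9 and 41.2, a dim signal 1.80-fold higher, the histone demethylase gene Kdm5b 1.62-fold and the cyclin gene Ccng2 1.57-fold. Rora was 1.82-fold higher on its brightest set with its sets in disagreement. Zfp395 was 3.30-fold lower, Anxa2 1.57-fold, the histone demethylase gene Kdm3a 1.54-fold and Wsb1 1.53-fold, each on its single measured set. Car9, a carbonic anhydrase and textbook HIF-1 target, was above the floor on the control array alone and at least 1.65-fold lower (29.5 and 17.1). Bnip3, a mitophagy receptor gene, read 4658 and 5911, a ratio of 0.34 against a spread of 0.18.

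Iron and heme genes under HIF had a median of 0.019 over 8 genes, or 0.15 over 7 without Tmprss6, which is itself on this list. On the brightest sets, besides Tmprss6, only Alas2, the erythroid heme synthesis gene, passed 1.5-fold, at 2.55-fold lower. Tfrc, Cp and Hmox1 had ratios of -0.12, 0.15 and 0.17, the second with its sets in disagreement.

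**Figure D4:**
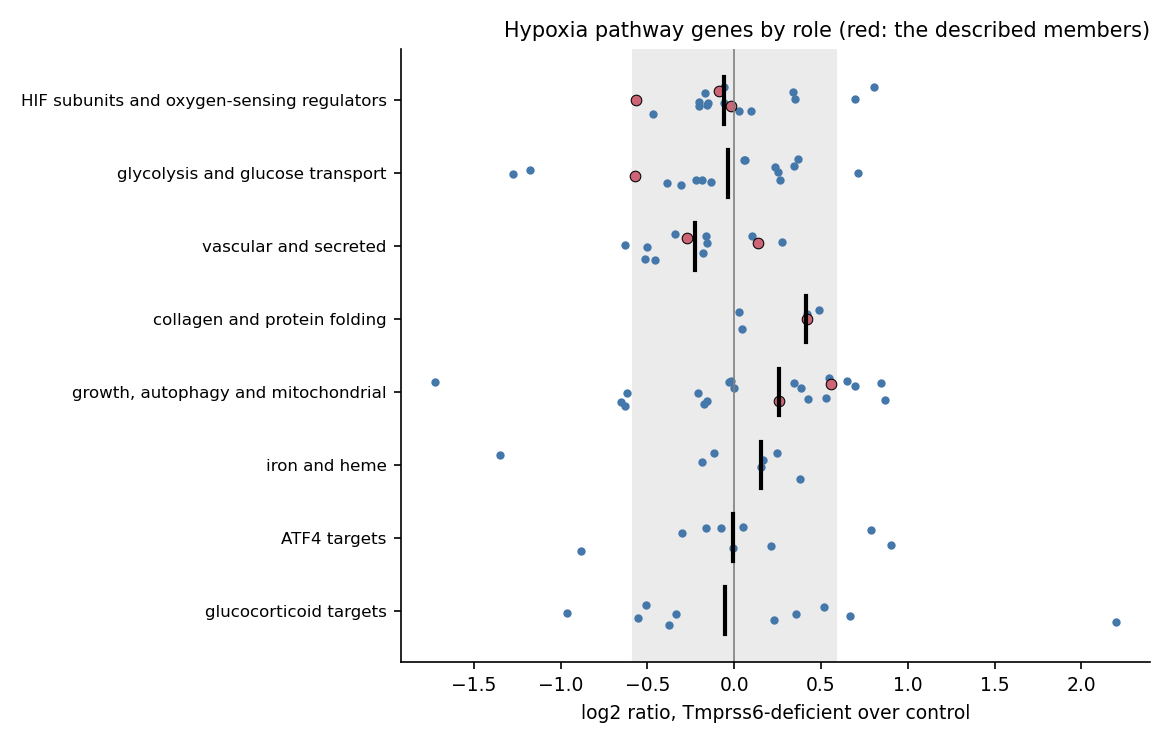
Log2 ratio of Tmprss6-deficient over control for genes above the floor on both arrays, in rows by role, with a black bar at the median; red points are the described hypoxia-inducible genes, points are spread vertically for legibility, the shaded band is 1.5-fold, and Tmprss6 is left out of the iron and heme row. The medians run from -0.23 for vascular and secreted targets to 0.41 for collagen and protein folding targets.

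Ddit4 also answers to other inputs, so their genes were read beside it. ATF4 targets, induced by amino acid and endoplasmic reticulum stress, were 2 higher and 1 lower among 9 genes, at a median of -0.0082. The asparagine synthetase gene Asns was 1.87-fold and 2.20-fold higher on its 2 sets and Chac1 1.73-fold higher, while Trib3 and Sesn2 had ratios of 0.21 and -0.074. Glucocorticoid targets were 2 higher and 1 lower among 10 genes, at a median of -0.054. Mt2 was 4.59-fold and Fkbp5 1.59-fold higher, and the phosphatase gene Dusp1 was 1.95-fold lower. Tsc22d3, a direct receptor target, had a ratio of -0.34 with its sets in disagreement. Tat, Per1 and Pck1 had ratios of -0.55, -0.51 and -0.38. Those of Sgk1, Klf9 and Zbtb16 were 0.23, 0.36 and 0.52, the last 2 with sets in disagreement. The part of either input in the ratio of Ddit4 was not tested.

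Markers of cells other than hepatocytes differed between the livers. Smooth muscle markers were lower in the Tmprss6-deficient liver in 5 of 5 genes by their brightest sets, Acta2 with its sets in disagreement, and 4 of them had only a bound. They summed to 908 in control and 112 in Tmprss6-deficient liver. Of 6 erythroid markers on the array, 1 above the floor on both arrays was lower, and 1 more was lower by its bound. They summed to 734 and 357, most of it from Alas2, counted above among iron and heme genes too, at 592 and 232 after scaling. Hbb-b2, a globin gene, was 1.45-fold higher on its brightest set and 1.55-fold lower on its other set. Among 8 Kupffer cell and macrophage markers 1 was higher and 2 were lower, at a median of -0.47, and they summed to 3448 and 2504. Cholangiocyte markers summed to 129.6 and 42.4 over 5 genes, with 0 above the floor on both arrays and 4 above it only in the control. Neutrophil markers summed to 174 and 185 over 7 genes. No marker was at 0 on either array. The part of these cells in the lower signals of Slc2a1 and Hif1a was not tested.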

How the data were processed

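Liver RNA from 1 control and 1 Tmprss6-deficient mouse, grouped by title, was hybridised to 1 array each. The authors deposited an intensity for each probe set on a linear scale, and the submitters' processing notes name MAS5. Its version and settings are not stated in the sources used here. Of 45101 probe sets, 34958 had 1 symbol in the platform annotation. The 932 with several and the 9211 unlisted were left out, and symbols were updated by gene identifier in RefSeq (GRCm38.p6), which changed 0. Both arrays were scaled to the same mean over the middle 96% of probe sets. The floor of 17.8 is the median signal of both arrays without the 64 control sets, 22272 and 22773 sets being at or above it. Where only 1 array exceeded the floor, the ratio is a bound against it ("at least"). Probe sets disagree where ratios of a gene, bounds included, differ in sign. The probe set spread is the SD of the difference between the ratios of a gene's 2 brightest sets, over the square root of 2. Calculations used Python 3.11.15 with pandas 2.3.3, and statsmodels 0.14.6 for loess. With 2 arrays there was no test.

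The members, gene lists and alternatives were chosen with earlier results of these data known. Every member is named with all its probe sets. From each list, up to 4 genes a direction at 1.5-fold or more with measured sets in agreement are named, with Epas1, Arnt, Egln2, Vhl, Hif1an and Tmprss6; other list genes were chosen after their values were seen. List symbols were matched through RefSeq synonyms where outdated. The procedure was tested on simulated data. Alternatives were other scalings, floors, thresholds and choices of probe set.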

Additional observations from a re-analysis of the deposited data

How the results depend on the processing

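With 1 array per genotype no animal could be left out. No paired analysis was possible because each group holds 1 sample. The ratios of Ddit4, Slc2a1, Hif1a, Ndrg1, P4ha1 and Egln3 kept their sign under the other scalings, floors and choices of probe set. So did that of Adm where it had a value, which it lacked at the higher floor and with plain probe sets. Slc2a1 ranged from -0.64 to -0.46, Hif1a from -0.63 to -0.30, Ddit4 from 0.49 to 0.56 and Ndrg1 from 0.093 to 0.58. Vegfa and Egln1 turned sign with the mean of all measured probe sets, to 0.12 and 0.37. The number of members lower by 1.5-fold, 0 as reported, was 2 with scaling to the median and 1 each with loess and quantile normalization. At 1.3-fold, 2 were higher and 2 lower, against 15.6% and 16.3% of all genes. The median over members was 0.14 with the mean of all measured probe sets, where that of all genes was 0.011, and 0.031 with the floor at the 30th percentile, which brings in Ankrd37. Scaling to the median also moved the split of all genes past 1.5-fold from 47.8% higher to 37.6% higher. The set with the highest signal on either array, an alternative chosen after seeing the data, changed no count of members. List medians turned sign for glycolysis at the higher floor, the 70th percentile (0.24), and for glucocorticoid targets with plain probe sets, those without a name suffix (0.23), and the mean of sets (0.053). Those of ATF4 targets did so with loess (0.047) and quantile normalization (0.045), and those of iron and heme genes with scaling to the median (-0.049) and loess (-0.0014). A low signal over background limits Ankrd37, Adm and P4ha1 most.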
